A study of Mus musculus with 6 samples.

Results

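A set of 10 rapidly induced genes was measured in the outflow region of mouse embryos by RNA sequencing. They were Fos, Fosb, Jun, Junb, Egr1, Ier2, Dusp1 and Btg2, which are immediate-early genes, and the flow-linked Kruppel-like factor genes Klf2 and Klf4. They were picked by name as members of known gene families, with earlier results of these data known, and all 10 were found among the 25888 genes of the expression table. Hand2 cKO embryos carried Hand2flox/flox and the Cre driver Mef2c-AHF-Cre, which is active in the anterior second heart field and its descendants but not in every cell type of the dissected tissue. They were set against embryos labelled control, whose own alleles are not stated. All embryos were C57BL/6 at E9.5, the anterior dorsal pericardial wall and the outflow tract were dissected together and pooled, and 3 libraries per group were sequenced. The labels do not say whether each library stands for other embryos or litters, so the p-values measure the spread between these libraries, which may be technical.

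Immediate-early genes are transcribed within minutes of a stimulus without new protein synthesis, through factors that already sit on their promoters, such as SRF with its ETS-domain partners and CREB. Their products include the AP-1 subunits of the Fos and Jun families and feedback regulators such as the phosphatase DUSP1. Growth factors, stretch and serum induce them, and so do dissection and dissociation of tissue. Klf2 and Klf4 are induced by fluid shear in endothelium and endocardium through the MEKK3, ERK5 and MEF2 pathway, and in the mouse embryo Klf2 marks endocardium exposed to strong flow.

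Hand2 itself had 34.6, 22.2 and 17.9 FPKM in mutants, against 116, 64.3 and 81.7 FPKM in controls, so the targeted gene followed the labels in all 6 libraries. Its log2 fold change was -1.78 (limma adjusted p = 0.109 without a block for the library number that mutants and controls share, and 0.00279 with it). The whole reads behind the FPKM values (sequenced fragments relative to gene length and to library size) summed to between 23190075 and 26345389 in mutant libraries and between 25002554 and 30137655 in control libraries. All 13 markers of heart field, outflow tract and pharynx checked, among them Isl1, Tbx1 and Nkx2-5, were above 1 FPKM in every library.

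Stretches of 6 promoters are shown, chosen from those that hold matches to sites of CREB or MEF2. They come from 4 members that were low in mutants (Fos, Klf4, Dusp1 and Btg2) and from 2 whose groups overlapped (Klf2 and Jun). They are RefSeq sequence on GRCm38.p6, 5′ to 3′ on the gene's strand, 110 bases each, upstream of the annotated start site. Capitals mark TGACG, the core motif bound by CREB and ATF factors, on either strand (CGTCA on the other), the palindromic cAMP response element TGACGTCA, and in Klf2 and Jun a match to the MEF2 site. The stretches lie at chr12:85473771-85473880 (plus strand) for Fos, chr4:55532616-55532725 (minus strand) for Klf4, chr17:26508557-26508666 (minus strand) for Dusp1, chr1:134079263-134079372 (minus strand) for Btg2, chr8:72318894-72319003 (plus strand) for Klf2 and chr4:95052223-95052332 (minus strand) for Jun.
Fos: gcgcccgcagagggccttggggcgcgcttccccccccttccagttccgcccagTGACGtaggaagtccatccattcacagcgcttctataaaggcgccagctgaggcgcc
Klf4: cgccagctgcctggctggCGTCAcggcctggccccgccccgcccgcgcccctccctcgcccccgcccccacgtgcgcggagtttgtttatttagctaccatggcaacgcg
Dusp1: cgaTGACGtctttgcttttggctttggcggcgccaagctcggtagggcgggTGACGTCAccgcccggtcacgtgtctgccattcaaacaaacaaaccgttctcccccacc
Btg2: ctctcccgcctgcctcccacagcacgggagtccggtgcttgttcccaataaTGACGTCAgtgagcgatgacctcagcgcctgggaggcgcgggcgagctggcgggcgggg
Klf2: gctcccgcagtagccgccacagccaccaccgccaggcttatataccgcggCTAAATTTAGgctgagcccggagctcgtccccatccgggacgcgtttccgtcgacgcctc
Jun: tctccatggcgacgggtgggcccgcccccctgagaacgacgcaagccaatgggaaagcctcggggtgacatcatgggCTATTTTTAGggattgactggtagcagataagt

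In the 250 bases before the start site, 8 members could be searched (Ier2 and Egr1 were not searched), on both strands. TGACG was present in 7 of these 8 promoters, all but that of Jun, against 17.8% of 32841 RefSeq promoter windows of the same length. The complete element TGACGTCA, which overlaps TGACG, was found in Dusp1 and Btg2 and in 1.5% of all windows. The MEF2 site was found in Klf2, 118 bases before its start site, and in Jun, 33 bases before, against 2.9% of all windows. No CArG box, the core of the serum response element, lay in any of the 8 windows (1.5% of all windows), and no AP-1 site of the form TGANTCA (6.8% of all). Only exact matches were counted, so TGACATCA in the Jun stretch, a near match to TGACGTCA, is not among them. Sequence farther upstream was not searched, so the absence of a site holds for these windows and these exact forms only. The member windows held 58.4% to 74.0% G and C, against a median of 52.4% over all windows, and matches depend on base composition. The GC box GGGCGG was also found in 7 of the 8 windows (32.7% of all windows). The E box was found in 6 (66.2% of all), the CACCC box in 5 (52.0%), the CCAAT box in 3 (33.9%) and the TATA box in 1 (12.4%). TGACG was present both in members that were low in mutants and in Junb and Klf2, whose groups overlapped. The TGACG matches of Fosb, Junb and Klf2 lie outside the stretches shown.

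The members spanned a wide range of levels, given in FPKM, which is scaled by gene length. Ier2, a nuclear protein gene of the serum response, was the highest with a mean of 102.4 ± 10.9 FPKM in mutants and 101 ± 22.6 FPKM in controls (SD, n = 3 each). Jun and Klf2 came next at 25.5 and 19.3 FPKM in mutants and 26.1 and 23.9 FPKM in controls, and their ranges overlapped. Dusp1, Junb, Btg2 and Klf4 followed in that order in each of the 6 libraries, although the ranges of neighbours in that order overlapped. Fos and Egr1 were near 1 FPKM and overlapped, and Fosb was the lowest at 0.0860 FPKM in mutants and 0.191 FPKM in controls. A mean of 1 FPKM over the 6 libraries was required for testing, which 8 members met. Egr1 and Fosb did not, and Fos met it only through the controls.

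**Figure D1:**
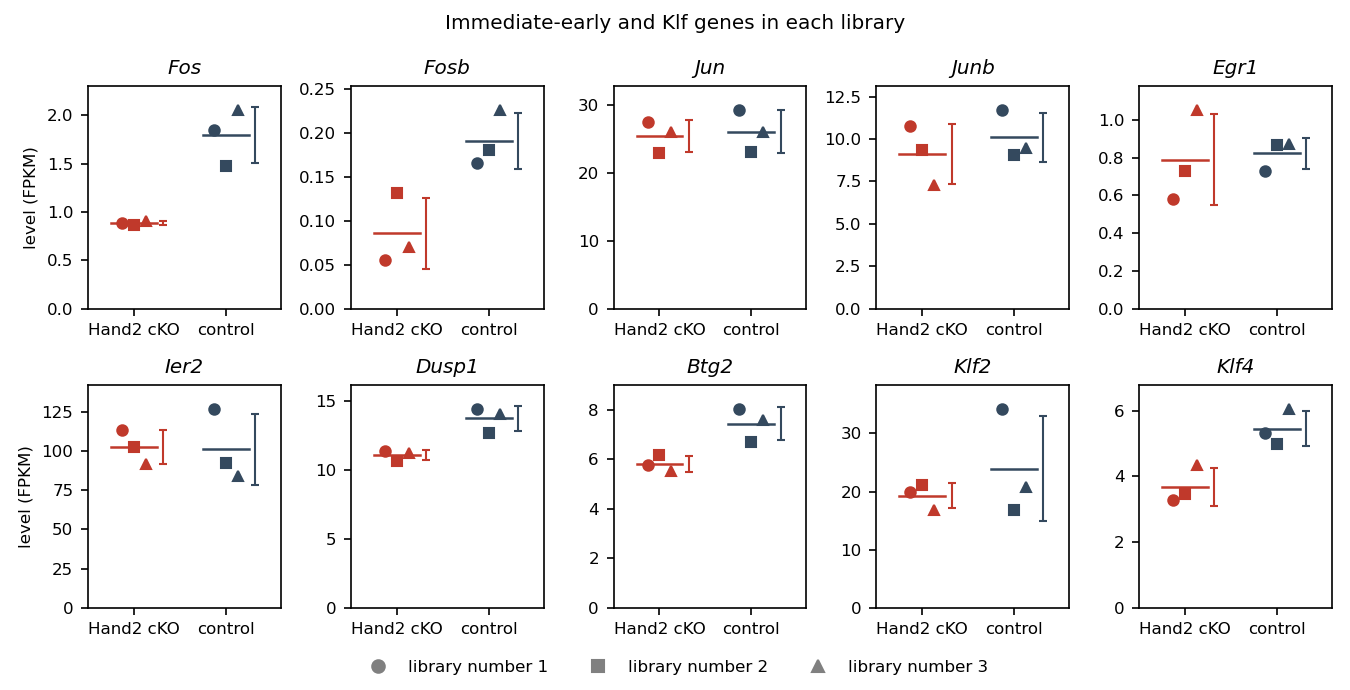
Level in FPKM of each member gene in the 3 Hand2 cKO libraries (red) and the 3 control libraries (dark). Symbols give the library number, short lines the group mean and bars the SD (n = 3). All mutant values lie below all control values for Fos, Fosb, Dusp1, Btg2 and Klf4, and the groups overlap for the other 5 genes.

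The comparison of mutants with controls asks which of these genes moved with loss of Hand2 in the Cre lineage. Fos, Klf4 and Dusp1 fell in mutants when the library number was taken into account, to 49.3%, 67.6% and 80.9% of the control mean, while Jun, Junb, Ier2, Egr1 and Klf2 had overlapping groups. In the limma fit without a replicate block no member passed an adjusted p of 0.05 (before adjustment, Fos, Klf4, Dusp1 and Btg2 had p under 0.05, all 4 lower in mutants, as did 4.32% of all tested genes, and none was higher). In that fit 0.15% of the 12650 genes tested were lower and 0.0237% higher. With the replicate number as a block 3 of the 8 tested members were lower and none higher, against 3.7% lower and 1.42% higher of all genes. That block rests on a pairing inferred from these data and not given by the labels. Weights per library without a block called the same 3 genes, Fos, Klf4 and Dusp1 (2.76% of all genes were lower there), and so did voom with the block on whole reads recovered from the FPKM steps (4.77%). Because Fos passed the level filter through the controls alone, the count of 3 is a description.

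Fos encodes the AP-1 subunit c-Fos, the textbook immediate-early gene. It had 0.888, 0.859 and 0.902 FPKM in mutant libraries 1 to 3, against 1.85, 1.48 and 2.05 FPKM in control libraries 1 to 3. The mutant values were nearly equal to each other and all lay below the lowest control. These values rested on 48, 54 and 58 reads in mutants and on 101, 108 and 130 reads in controls. The exact 95% Poisson interval, which covers counting error only, reached at most 1.18 FPKM in any mutant library and began at 1.21 FPKM or above in every control library. The log2 fold change was -0.56 (SE 0.11) on the log2(FPKM + 1) scale, which understates low genes, and -1.02 as the log2 ratio of the mean FPKM. The limma adjusted p was 0.202 without a block and 0.0340 with it. Fos met the level filter only through the controls, so both values are a description. With neither the level filter nor a block the limma adjusted p was 0.330. Each number showed the same direction, with 48.1%, 58.1% and 43.9% of the control level in mutant libraries 1, 2 and 3. With the block and both libraries of number 1, 2 or 3 left out, the adjusted p was 0.101, 0.0683 and 0.119.

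Fosb, a second Fos family subunit, had 0.0558, 0.132 and 0.0703 FPKM in mutants, from 8, 22 and 12 reads, against 0.165, 0.181 and 0.226 FPKM in controls, from 24, 35 and 38 reads. The groups did not overlap, but the counting intervals of mutant library 2 (0.0827 to 0.200 FPKM) and control library 1 (0.106 to 0.246 FPKM) did. Fosb was under the level filter. With no filter its log2 fold change on the recovered reads was -1.15 by voom without a block (adjusted p = 0.518) and -1.08 with it (adjusted p = 0.136), so it did not pass.

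Both Jun family members had overlapping groups. Jun encodes c-Jun, the main dimer partner of c-Fos, and had 27.4, 22.9 and 26.1 FPKM in mutants, against 29.3, 23.0 and 26.0 FPKM in controls. The values were interleaved, and within a number the mutant had 93.7%, 99.4% and 100.4% of the control level. The log2 fold change was -0.03 with a 95% interval from -0.31 to 0.25 without a block and from -0.15 to 0.09 with it. Its sign turned positive by rescaling to equal sums (0.03), by voom (0.01), without mutant library 2 (0.04) and without control library 1 (0.05). In the reference annotation 232 exonic bases of Jun are shared with Junos on the opposite strand, and how reads there were counted is not known. Junb, which encodes a Jun family subunit with weaker activating capacity, had 10.8, 9.36 and 7.28 FPKM in mutants, against 11.7, 9.08 and 9.49 FPKM in controls. Its groups overlapped, with the lowest value in mutant library 3, and the log2 fold change was -0.14 (95% interval -0.50 to 0.23). In the reference annotation 173 exonic bases of Junb are shared with Prdx2 on the opposite strand, and how reads there were counted is not known.

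The level of Fos relative to Jun separated the groups. Fos stood at 3.24%, 3.76% and 3.46% of the Jun level in mutants, against 6.30%, 6.42% and 7.90% in controls. Junb relative to Jun did not separate them, at 39.3%, 40.9% and 27.9% in mutants and 40.0%, 39.4% and 36.5% in controls. Jun made up 68.8% to 76.0% of the summed FPKM of Fos, Fosb, Jun and Junb in mutants and 68.1% to 68.8% in controls.

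Egr1 encodes a zinc finger factor that is induced through serum response elements, as Fos is. It had 0.582, 0.726 and 1.05 FPKM in mutants, against 0.728, 0.869 and 0.870 FPKM in controls. Both the lowest and the highest value were in mutants, and their coefficient of variation was 30.6%, against 9.91% in controls. With no level filter the log2 fold change was -0.04 (95% interval -0.32 to 0.25, limma adjusted p = 1.00). Ier2 had 113, 102.3 and 91.6 FPKM in mutants, against 127, 92.5 and 83.9 FPKM in controls. In both groups the value was highest in library 1 and lowest in library 3, and the log2 fold change was 0.04 (95% interval -0.38 to 0.45 without a block and -0.15 to 0.22 with it).

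Dusp1 encodes a dual specificity phosphatase that switches off MAP kinases in the nucleus. It had 11.4, 10.7 and 11.3 FPKM in mutants, against 14.4, 12.7 and 14.1 FPKM in controls. The groups did not overlap, and the shift was even across numbers, at 78.9%, 84.0% and 80.0% of the control level. Its log2 fold change was -0.28 (SE 0.08). By limma the adjusted p was 0.459 without a block and 0.0378 with it. With the block after rescaling to equal sums the adjusted p was 0.0726, and with both libraries of number 1, 2 or 3 left out it was 0.145, 0.0676 and 0.163. Its recovered length differs from the reference annotation, which includes an isoform that starts far upstream, and 11 of its exonic bases are shared with Ergic1 on the other strand.

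Btg2 encodes an antiproliferative cofactor of mRNA deadenylation. It had 5.78, 6.18 and 5.52 FPKM in mutants, against 8.04, 6.71 and 7.60 FPKM in controls, with no overlap. Mutants had 71.9%, 92.1% and 72.6% of the control level within numbers 1, 2 and 3. The log2 fold change was -0.31 (SE 0.09), and it passed neither without a block (limma adjusted p = 0.485) nor with it (0.0902). Of the 8 tested members, 4 had groups that did not overlap with mutants lower (Fos, Klf4, Dusp1 and Btg2) and none with mutants higher. Over all tested genes this was so for 6.85% in the lower and 5.44% in the higher direction. Fos met the level filter only through the controls, so this count too is a description.

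**Figure D2:**
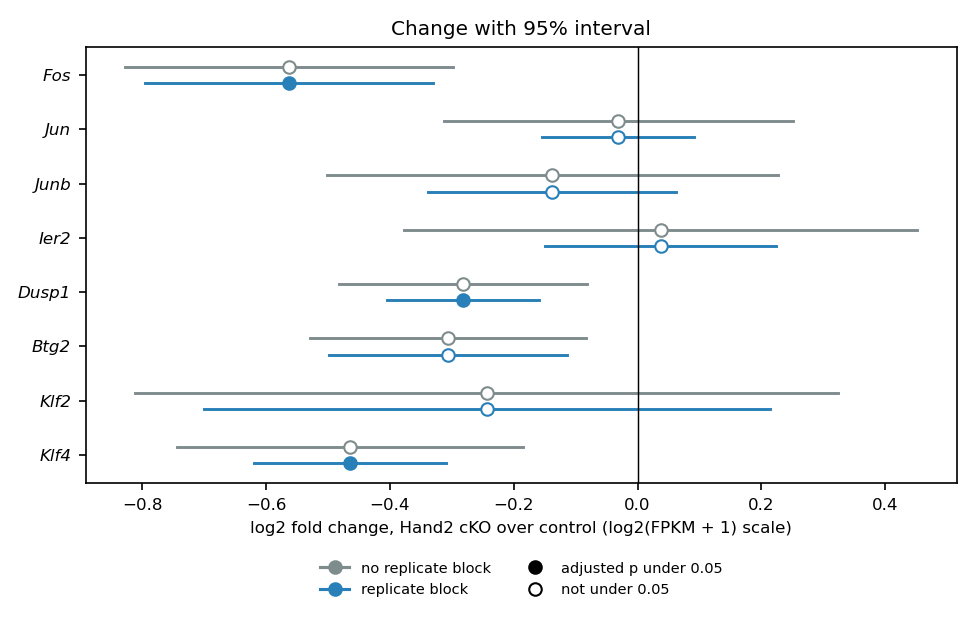
Log2 fold change of Hand2 cKO over control on the log2(FPKM + 1) scale for the 8 tested members, with 95% limma intervals, without a replicate block (grey) and with it (blue). Filled points have an adjusted p under 0.05: Fos, Klf4 and Dusp1 with the block and no member without it. The intervals of Jun, Junb, Ier2 and Klf2 include 0 in both fits.

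Klf4 encodes a zinc finger factor of epithelium and endothelium that restrains proliferation. It had 3.27, 3.45 and 4.34 FPKM in mutants, against 5.33, 4.98 and 6.05 FPKM in controls. The groups did not overlap, and mutants had 61.4%, 69.2% and 71.8% of the control level within numbers 1, 2 and 3. Its log2 fold change was -0.46 (SE 0.12). By limma the adjusted p was 0.376 without a block and 0.0192 with it. With the block and both libraries of number 1, 2 or 3 left out it was 0.0708, 0.0569 and 0.0465.

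Klf2, the shear-induced factor of endothelium and endocardium, had 19.9, 21.0 and 16.9 FPKM in mutants, against 34.2, 16.8 and 20.8 FPKM in controls. Control library 1 stood well above the other 5 libraries, which lay between 16.8 and 21.0 FPKM in both groups. The log2 fold change was -0.24 (95% interval -0.81 to 0.32, limma adjusted p = 0.998 without a block and 0.483 with it). Without control library 1 it was 0.03. Within numbers 1, 2 and 3 the mutant had 58.4%, 125% and 80.8% of the control level, so the direction was not shared. The level of Klf4 was 16.4%, 16.4% and 25.8% of that of Klf2 in mutants, against 15.6%, 29.7% and 29.0% in controls, and these ranges overlapped.

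Most markers of endothelium were lower in mutants as well. Of 25 markers tested none passed without a block (10 had p under 0.05 before adjustment, all lower). With the block 10 fell, Cdh5 among them, while Kdr and Tie1 did not pass. Changes were negative for 23 of the 25 and positive for 2. The median log2 fold change over all 25 was -0.25, against -0.01 over all tested genes. Their summed level was 287.6 to 337 FPKM in mutants and 342 to 428 FPKM in controls, and none of the 25 was under 1 FPKM in every library. In bulk tissue, fewer endothelial cells and less RNA per cell cannot be told apart. Klf2 minus the mean endothelial marker level, both as log2(FPKM + 1), was 1.05, 1.30 and 0.96 in mutants, against 1.55, 0.74 and 0.98 in controls. The difference of means was 0.01, with a two-sided exact permutation p of 1. Klf4 minus the same mean was -1.24, -1.01 and -0.78 in mutants, against -0.93, -0.84 and -0.65 in controls. That difference was -0.21 (two-sided exact permutation p = 0.3, where 0.1 is the smallest p that this design allows), about as large as the SD of 0.23 in mutants and 0.14 in controls, and the groups overlapped. Within each of the 3 numbers the mutant value was the lower one (two-sided exact sign-flip p = 0.25, the smallest that 3 pairs allow). The difference was -0.09 without mutant library 1, -0.13 without control library 3 and -0.32 without mutant library 3.

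**Figure D3:**
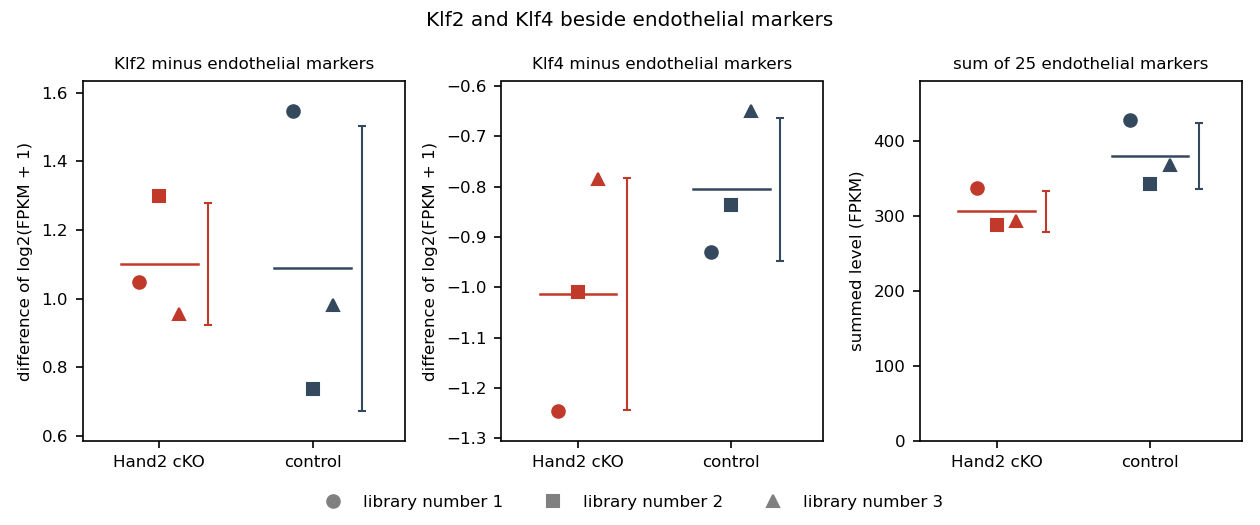
Left and middle, log2(FPKM + 1) of Klf2 and Klf4 minus the mean log2(FPKM + 1) of 25 endothelial markers in each library. Right, summed FPKM of those markers, which was 287.6 to 337 in Hand2 cKO (red) and 342 to 428 in control libraries (dark). Lines are group means and bars SDs (n = 3), and the relative levels overlap between groups for both genes.

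Markers of other cell types in the pools were read in the same way. Of 20 cardiac muscle markers 1 was lower without a block and 14 with it, none was higher, and their summed level was 3957 to 6119 FPKM in mutants and 5996 to 9612 FPKM in controls. Of 16 red cell markers tested none passed in either limma fit (0 at an unadjusted p under 0.05 and 1 lower by voom with the block). All 16 had a negative change (median -0.22), and their sums of 3553 to 5161 FPKM in mutants and 3407 to 8068 FPKM in controls overlapped. Of 13 macrophage markers, 9 were under 1 FPKM in every library, Ptprc, Csf1r and Adgre1 among them, and the sums were 7.32 to 12.7 FPKM in mutants and 7.71 to 11.4 FPKM in controls. Yolk sac and liver endoderm markers summed to 745 FPKM in control library 3 and to at most 12.0 FPKM in the other 5 libraries. Of 13 tested, none passed in either limma fit and 11 were lower by voom with the block. Voom with the block thus called most of a list whose sum was high in 1 control library only. The part of cell composition in the values of the members was not tested. Without control library 3 the log2 fold changes of Fos, Klf4 and Dusp1 were -0.50, -0.40 and -0.26. Without control library 1, which had the highest cardiac, endothelial and red cell sums, they were -0.55, -0.48 and -0.25.

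Among 10 tested genes of other AP-1, ATF and small Maf factors none passed without a block (3 had p under 0.05 before adjustment, all lower), and none passed with it or by voom with the block, while 6 of the 10 had a negative change (median -0.10). Jdp2, an AP-1 repressor, had 9.82 ± 1.18 FPKM in mutants and 13.7 ± 2.83 FPKM in controls (SD, n = 3 each). The stress-induced Atf3 had 4.55 and 6.08 FPKM in mutants and controls, Mafk 8.18 and 10.6 FPKM, and Jund, the most abundant Jun family gene, 61.8 and 60.7 FPKM. Jund was named after its values were seen.

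Of 40 other tested immediate-early genes none passed without a block (5 had p under 0.05 before adjustment, all lower). With the block 3 fell, Gadd45g, Sik1 and Ccn2. By voom with the block 4 fell, these 3 and Ccn1, and 2 rose, Zfp36l1 (45.7 FPKM in mutants and 38.1 FPKM in controls) and Dusp6 (43.7 and 35.6 FPKM), which belong to that count and did not pass limma with the block. Gadd45g, a stress and differentiation gene, had 19.2 ± 4.93 FPKM in mutants and 30.9 ± 9.27 FPKM in controls, and its groups overlapped. Sik1, a salt-inducible kinase gene that CREB induces, had 21.6 and 28.0 FPKM in mutants and controls. Ccn2, a matricellular gene regulated by SRF and YAP, had 5.33 and 7.49 FPKM, and its relative Ccn1 41.1 and 50.6 FPKM (limma adjusted p = 0.704 without a block and 0.0606 with it). Dusp2 had 2.71 FPKM in mutants and 3.40 FPKM in controls, and the orphan receptor gene Nr4a1 10.2 and 11.9 FPKM, and neither passed in either fit. The median over the 40 was -0.02, with 23 negative and 17 positive changes, close to the -0.01 of all genes. Egr2, Egr3, Egr4, Nr4a3 and Ptgs2 were under 1 FPKM in every library.

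The Klf family beyond Klf2 and Klf4 showed no call. Of 11 other Klf genes tested, none passed in either limma fit or by voom with the block, none had an unadjusted p under 0.05 without a block, and all 11 had overlapping groups (median -0.07). Klf6, itself an immediate-early gene, had 8.21 ± 0.71 FPKM in mutants and 9.60 ± 1.48 FPKM in controls. The erythroid factor gene Klf1 had 8.15 and 10.9 FPKM. Of 30 tested factors and kinases upstream of immediate-early promoters none passed in either limma fit or by voom with the block, none had an unadjusted p under 0.05 and all had overlapping groups. Srf had 67.3 ± 3.55 FPKM in mutants and 74.9 ± 5.73 FPKM in controls, the SRF cofactor gene Mrtfa 9.97 and 9.12 FPKM, and Creb1 5.71 and 5.11 FPKM.

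Genes linked to flow in endothelium changed in both directions. The list was not sorted by whether flow raises or lowers a gene, so its counts and median do not measure a response to flow. Of 32 tested none passed without a block (before adjustment 3 lower and 3 higher had p under 0.05), and in the blocked fit 1 fell and 2 rose, with a median of -0.01 over the 32. By voom with the block 4 fell and 4 rose. Gja5, the connexin 40 gene, fell with the block, with 5.66 ± 0.66 FPKM in mutants and 8.09 ± 0.78 FPKM in controls. The cell type in which it fell was not tested. Angpt2, an antagonist ligand of TIE2, rose with it, with 6.17 ± 0.62 and 4.39 ± 0.16 FPKM, and so did the chemokine receptor gene Cxcr4, with 16.0 ± 2.08 and 11.9 ± 1.19 FPKM. Nfatc1, a factor of valve endocardium, had 3.65 FPKM in mutants and 4.70 FPKM in controls, and Wnt9b, a Klf2-linked ligand of endocardium, 4.85 and 3.87 FPKM. Tal1 had 5.02 and 6.48 FPKM, and these 3 passed in neither limma fit. The Klf2 target Nos3 had 5.48 FPKM in mutants and 6.47 FPKM in controls and also passed in neither.

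**Figure D4:**
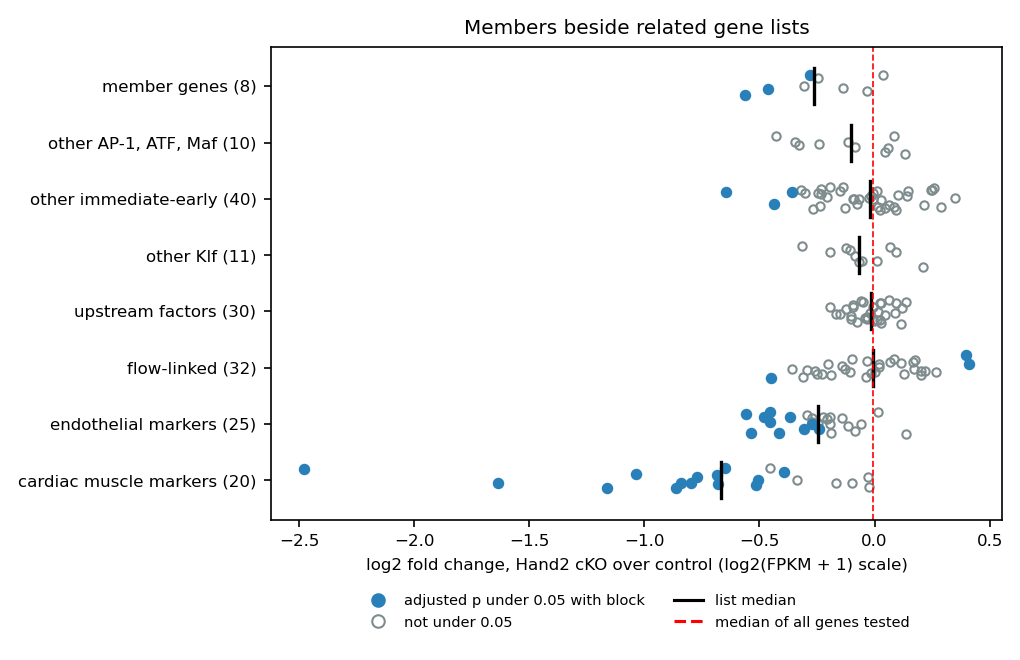
Log2 fold change of Hand2 cKO over control on the log2(FPKM + 1) scale for tested genes of 8 lists (number tested in brackets). Filled points passed limma with the replicate block, black lines are list medians and the dashed line is the median of all genes tested at -0.01. The other immediate-early, Klf, upstream and flow-linked lists centre near the dashed line, while the endothelial and cardiac marker lists have medians of -0.25 and -0.67.

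The genes whose levels followed a member most closely over the 6 libraries were found by Pearson's r of log2(FPKM + 1) among 11302 named genes. This is a description only, since 6 libraries of 2 groups leave many genes with a high r. For Fos they were Sema3g, F11r and Tmem108 (r of 0.989 or more), and for Klf4 Plppr5, Fam171a1 and Akirin1. For Klf2 they were Tor2a, Slc38a5 and Mkrn1, and for Egr1 Prdm2, Fam120b and Hbs1l.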

How the data were processed

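Per the labels' protocols, pooled tissue gave RNA by Trizol extraction, and an NEBNext Ultra kit turned it into libraries. The authors deposited FPKM values per Ensembl gene, 1 column per library, which were matched to the titles by group and number. Named without roles in the submitters' processing notes are Cufflinks 2.2.1, STAR 2.5.1b, bcl2fastq 2.18 and the build mm8. The annotation was not given in the sources used here, nor was the strand setting. Symbols came from a reference name table (129 IDs unmatched). FPKM steps are whole multiples of the value of 1 read, so whole reads were recovered. The recovered gene lengths equalled the GENCODE M21 (GRCm38) exon union for 20310 of 25759 genes, so the counting used an annotation of that kind although mm8 is listed. For other genes, Junb and Dusp1 among the members, reads may be too few by a common factor.

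Groups were compared two-sided on log2(FPKM + 1) by limma 3.58.1 (R 4.3.3), with moderation and a mean-variance trend, over 12650 genes with a mean of at least 1 FPKM, Benjamini-Hochberg adjusted at 0.05. Fosb and Egr1 were read from a fit without the level filter. Voom used plain totals of the recovered reads as library sizes. The fits were also run on simulated data, which had an effect shared by same-numbered libraries built in. This does not test whether the real libraries are paired. Other pseudocounts, filters, scalings, library weights, the block, voom and leaving out libraries were tried as alternatives. Library numbers are shared by the groups. Deviations from group means correlated at 0.73, 0.44 and 0.44 for numbers 1, 2 and 3, so same-numbered libraries were treated as pairs, although mutant 3 and control 2 also had 0.31. This pairing comes from the data, as the labels do not explain the numbers. Values with the number as a block stand beside results they change. At most 6 genes per list, those with the smallest p, were named, and others are said to be chosen later or belong to a stated count. Nos3, Creb1 and Jund were picked with values in view. The members and lists were chosen with earlier results of these data known. No sequence of Egr1 or Ier2 was used here.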

Additional observations from a re-analysis of the deposited data

How the results depend on the processing

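Fos, Klf4, Dusp1 and Btg2 were lower in mutants in all 21 other settings. Their groups did not overlap, so leaving out libraries could not turn the sign. The block and the level filter leave the estimate unchanged, so these settings do not test the direction. The adjusted p ran from 0.00954 to 0.765 for Fos, 0.0103 to 1.00 for Klf4, 0.0378 to 1.00 for Dusp1 and 0.0526 to 1.00 for Btg2. No member passed without any 1 library, but these fits had no block, and none passed without a block in all 6 libraries either. The number of members called lower was 0 in the fit with neither block nor weights, 3 with the replicate block, 3 with array weights, 3 by quantile normalization with the block, 2 by rescaling to equal sums with the block, 3 by voom with the block and 1 with the block and both libraries numbered 3 left out. For the context lists together, with 0 called in either direction in the fit with neither, these settings called 4, 3, 4, 4, 8 and 2 genes lower and 2, 2, 3, 4, 6 and 0 higher. With the block and both libraries numbered 1 or 2 left out, 1 and 4 were lower and 2 and 0 higher.

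Over all genes, 19 lower and 3 higher calls became 468 and 180 with the replicate block, 349 and 193 with array weights, 399 and 254 by quantile normalization with the block, 378 and 372 by rescaling with the block and 604 and 597 by voom with the block. They were 3 and 5 with no level filter, and 9 lower by rescaling alone. With the block and numbers 1, 2 or 3 left out they were 246, 229 and 210 lower and 94, 54 and 80 higher. Without any 1 library, in fits with no block, 0 to 2 were lower and 0 to 2 higher. The cause of these differences was not tested.

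Some signs turned. Jun had 0.028 by rescaling with or without the block, 0.011 by voom with or without it and -0.11 to 0.052 without 1 library. Junb had -0.25 to 0.00107 without 1 library. Egr1 had -0.14 to 0.048 without 1 library, and 0.00979 and 0.00332 with the block and number 1 or 2 left out. Ier2 had -0.084 to 0.21 without 1 library, and -0.016 and -0.00721 with the block and number 2 or 3 left out. Klf2 had 0.00723 with array weights, -0.46 to 0.034 without 1 library and 0.00829 with the block and number 1 left out. Klf2 relative to endothelial markers ranged from -0.16 to 0.24 without 1 library, and Klf4 relative to them from -0.32 to -0.09. The number of libraries limits the precision. For Fos, Fosb and Egr1 depth does too, since they rest on 8 to 130 reads per library.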
